A study of Mus musculus with 23 samples.

Results

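The RNA levels of 8 genes whose transcription factors can drive an epithelial-mesenchymal transition (EMT) were followed across 23 murine pancreatic ductal adenocarcinoma (PDAC) cell lines. The genes were Zeb1, Zeb2, Snai1, Snai2, Twist1, Twist2, Prrx1 and Bnc2. The members were taken by gene name. All 8 genes were on the array, with 23 probe sets that carry 1 of these symbols and no other, out of 18193 genes that can be named in this way. For each gene the probe set with the highest mean over the 23 lines was used, and the others served as a check. The question asked of the data was which of the factors follow the loss of Cdh1, the gene of the adherens junction protein E-cadherin, from line to line.

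In an EMT an epithelial cell gives up its junctions and its apical-basal polarity and takes on a motile, matrix-producing state. Snai1 and Snai2 are zinc finger proteins, and Zeb1 and Zeb2 carry zinc finger clusters at both ends; these repress epithelial genes, Cdh1 among them, by binding E-boxes in their promoters. Twist1 and Twist2 are basic helix-loop-helix proteins of mesoderm and its derivatives, Prrx1 is a homeobox protein of limb and craniofacial mesenchyme, and Bnc2 (basonuclin 2) is a zinc finger protein of mesenchymal cells and keratinocytes. In PDAC, lines of an epithelial and of a mesenchymal phenotype are both known.

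The study asked which genes set the response of such lines to the dual PI3K-mTOR inhibitor Bez235, and total RNA of each untreated line was hybridised to 1 array. The lines came from genetically engineered mouse models of PDAC, and where the study's genotype table has a row the Cre recombinase was Ptf1aCre or Pdx1-Cre. The lines whose names end in the mouse numbers of PPT-3107, PPT-5193, PPT-5486 and PPT-6051 carried the p53 allele R172H, and some lines carried lacZ or luciferase reporter alleles. For the mice of HEP-5123, PPT-15272 and PPT-53631 that table has no row, so their alleles are not stated here. The cells were kept at low passage in DMEM with fetal calf serum. By the prefix of the name there were 12 PPT lines and 11 lines of another prefix (ASC, B, HEP, LN or PUL). The prefixes are not spelled out in the labels. By the number in the name there were 14 mice, of which 5 were the source of 14 lines, so lines are not fully independent. Each line is a single culture with no replicate array.

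Values are log2 signals, and the median of each array lay between 3.58 and 3.89. A signal at or under that median is close to what probe sets of unexpressed genes give. Signals of different probe sets have no common scale, so a level is compared between lines and never between genes. No 2 arrays held identical values. Markers of a ductal carcinoma cell were measured as a check on the cell type (Krt19, Krt7, Krt8, Krt18, Epcam, Sox9 and Muc1). The line ASC-5193 stood apart, with the lowest Krt8 (3.44), Krt18 (2.46), Krt19 (2.87) and Krt7 (2.09) of the 23 lines. Epcam was under the array median in 6 of the 23 lines. Leukocyte, endothelial, acinar and endocrine markers held no gene that passed the test against Cdh1 (0 of 6, 0 of 5, 0 of 3 and 0 of 3 measured), and Ptprc, Pecam1, Cdh5, Tek, Ptf1a, Gcg and Chga were under the array median in all 23 lines. Some other genes of these lists lay above it in most or all lines: Cd68, Csf1r, Kdr and Ins2 were under it in 0 lines, Cela1 in 1 (highest signal 8.98) and Lyz2 in 4 (highest signal 8.54, in PPT-17728). A signal above the array median does not by itself show that a gene is expressed. Ins2, for example, was nearly flat, at 4.77 to 5.20 below the Cdh1 gap described below and 4.79 to 5.21 above it.

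The E-box that the Snail and Zeb proteins are known to bind is shown first, since it is the sequence that links these factors to epithelial genes. The letters CAGGTG or its reverse complement CACCTG were searched in the 250 bases before each RefSeq start (GRCm38.p6). Of 32851 promoters 17.2% held the motif, and of 27025 genes 19.4% had a promoter that did. The table had a promoter for 14 of the 18 epithelial junction and identity genes, and 10 of the 14 held it (71.4%): Epcam, Cldn4, Cldn7, Ocln, Tjp3, Crb3, Krt8, Krt18, Krt7 and Rab25. Among 6 epithelial regulators with a promoter 3 held it (Grhl3, Elf3, Foxa1), and among 9 mesenchymal effectors none did (0%). Of the 8 factors 6 had a promoter, and Snai1 alone held the motif, 126 bases before its start. That share (16.7%) is near the share of all promoters. In the windows below the motif is in capitals, and each is written 5′ to 3′ on the strand of the gene. A match is a run of letters and not a binding site, and the arrays did not measure binding. Cdh1 had no entry.
Snai1, chr2:167538042-167538101, plus strand: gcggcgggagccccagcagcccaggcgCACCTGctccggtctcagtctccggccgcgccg
Epcam, chr17:87635765-87635824, plus strand: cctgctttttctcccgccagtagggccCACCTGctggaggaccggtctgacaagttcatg
Cldn7, chr11:69965297-69965356, plus strand: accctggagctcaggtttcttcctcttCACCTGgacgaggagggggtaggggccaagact
Crb3, chr17:57062111-57062170, plus strand: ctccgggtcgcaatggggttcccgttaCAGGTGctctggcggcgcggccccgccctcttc
Krt7, chr15:101412332-101412391, plus strand: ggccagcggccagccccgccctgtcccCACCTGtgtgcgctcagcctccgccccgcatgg
Krt8, chr15:102004421-102004480, minus strand: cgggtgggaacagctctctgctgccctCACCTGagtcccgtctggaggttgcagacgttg
Elf3, chr1:135258580-135258639, minus strand: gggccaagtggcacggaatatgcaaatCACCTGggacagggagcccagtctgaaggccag
The windows show the 1 factor that holds the motif, 3 junction or adhesion genes, 2 keratins and the epithelial regulator Elf3, whose signals are all given further on.

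Cdh1 split the lines. The probe set of Cdh1 (1448261_at; chromosome 8, 106603350 to 106670247, GRCm38.p6) was 2.22 in PPT-3250, 2.75 in ASC-5193, 3.59 in PPT-16992, 4.81 in PPT-17728, 5.87 in PPT-5320 and 6.48 in ASC-53909. In the other 17 lines the lowest signal was 10.23, the median 11.12 and the highest 11.81. The gap of 3.75 between 6.48 and 10.23 took 39.1% of the whole range of 9.59, and the next largest gap was 1.22. The 6 lines below the gap were 4 PPT lines and 2 lines of another prefix from 6 mice, and the 17 lines above it came from 9 mice. Mouse 5193 had a line on each side. Because the lines form 2 clusters, no correlation with Cdh1 over all 23 lines is given, and the lines on each side are described by their ranges without a test.

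A slope on Cdh1 was fitted for every other probe set with limma, with the mouse as a random block. It gives the change in log2 signal for each log2 unit of Cdh1, and a negative slope means more signal where Cdh1 was lower. P-values were adjusted by Benjamini-Hochberg over 45036 probe sets. With a negative slope 4.58% of all probe sets passed an adjusted p of 0.05, and with a positive slope 4.89%. Of the 8 factors 4 passed, all with a negative slope: Prrx1, Bnc2, Snai1 and Twist2. Zeb1, Zeb2, Twist1 and Snai2 had negative slopes that did not pass. Over all probe sets 0.451% had ranges that did not overlap and were higher below the gap, and 2 of the 8 factors did so, Prrx1 and Bnc2.

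**Figure D1:**
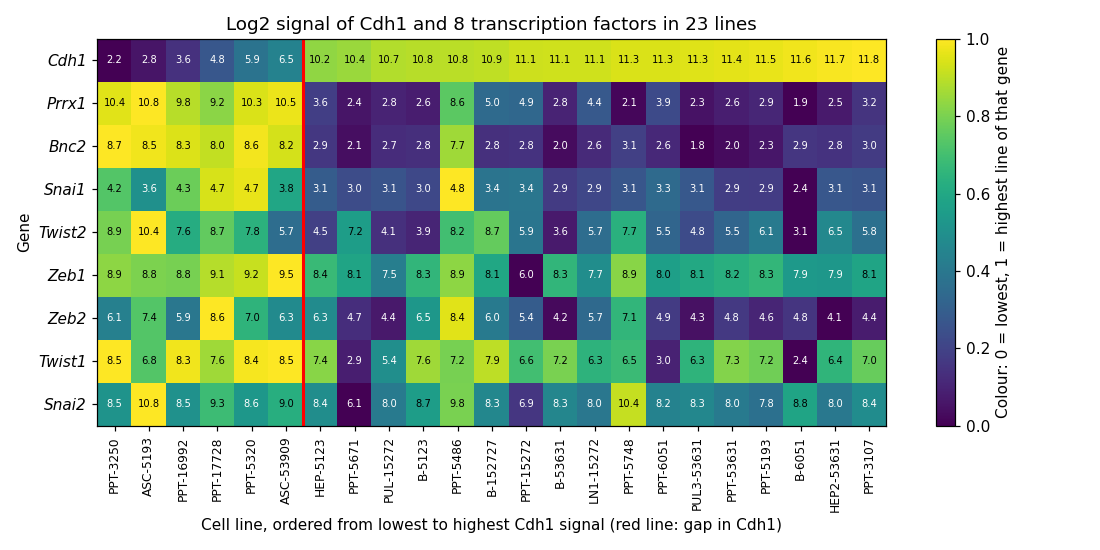
Log2 signal of Cdh1 and the 8 factors (rows) in each of the 23 lines (columns, ordered by Cdh1; the red line marks the gap). Numbers are log2 signals and colours run from the lowest to the highest line of each gene. Prrx1 and Bnc2 change from bright to dark at the gap in all lines but PPT-5486. The colours of Snai2 and Twist1 overlap between the sides.

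Prrx1 (1425528_at; chromosome 1, 163245119 to 163315145) had the second most negative slope of all probe sets. Its signal was 10.38 in PPT-3250, 10.79 in ASC-5193, 9.83 in PPT-16992, 9.23 in PPT-17728, 10.29 in PPT-5320 and 10.54 in ASC-53909. Above the gap the lowest signal was 1.91, the median 2.79 and the highest 8.55, and 12 of the 17 lines were under their array median. All 6 lines with low Cdh1 were thus above every other line. An array of a whole culture cannot tell fewer positive cells from less RNA per cell. The highest of the other lines was PPT-5486, followed by B-152727 at 4.98, PPT-15272 at 4.89 and LN1-15272 at 4.39, so the lines of mouse 15272 held a middle level, except PUL-15272 at 2.79. The slope was -0.92 ± 0.10 (SE; limma, adjusted p = 1.89e-06). Of 5 other probe sets 4 passed as well (1425526_a_at, 1425527_at, 1432129_a_at and 1439774_at, slopes -0.33 to -0.85), and 1458004_at, under the array median in all lines, did not (-0.01 ± 0.01, adjusted p = 0.776).

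Bnc2 (1438861_at; chromosome 4, 84266804 to 84676029) was at 2 separate levels but for 1 line. Its signal was 8.66 in PPT-3250, 8.52 in ASC-5193, 8.31 in PPT-16992, 8.03 in PPT-17728, 8.55 in PPT-5320 and 8.22 in ASC-53909. In the 17 other lines the lowest signal was 1.84, the median 2.75 and the highest 7.69, and 16 of the 17 lines were under their array median. The 7.69 belonged to PPT-5486, and the next line, PPT-5748, was at 3.12. The slope was -0.73 ± 0.08 (SE; limma, adjusted p = 1.85e-06), the 14th most negative. A second probe set, 1444646_at, had a slope of -0.37 ± 0.03 (adjusted p = 2.33e-08) and no overlap, PPT-5486 included. Its highest line above the gap was at 2.52 and its lowest line below at 3.84. The dim 1459132_at did not pass (adjusted p = 0.449).

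Snai1 (1448742_at; chromosome 2, 167538195 to 167542814), a zinc finger repressor of Cdh1, was dim on this array. Its signal was 4.18 in PPT-3250, 3.63 in ASC-5193, 4.28 in PPT-16992, 4.67 in PPT-17728, 4.73 in PPT-5320 and 3.84 in ASC-53909. On the other side of the gap the lowest signal was 2.44, the median 3.06 and the highest 4.81, and 16 of the 17 lines were under their array median. PPT-5486 had the 4.81, the highest of all 23 lines, and was the only line to overlap, since the next was PPT-15272 at 3.37. The slope was -0.14 ± 0.03 (SE; limma, adjusted p = 0.00593). Taken as 1 mean per mouse it was -0.15 ± 0.04 and no longer passed (adjusted p = 0.0731), and with the mouse as a fixed block, which compares lines within a mouse, it was -0.09 ± 0.04 and did not pass (adjusted p = 0.322).

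Twist2 (1448925_at; chromosome 1, 91801461 to 91848034) was the least steady of the 4 factors that passed. Its signal was 8.93 in PPT-3250, 10.42 in ASC-5193, 7.62 in PPT-16992, 8.65 in PPT-17728, 7.80 in PPT-5320 and 5.72 in ASC-53909. In the 17 lines above the gap the lowest signal was 3.09, the median 5.71 and the highest 8.70. The ranges overlapped widely, and 8 of the 17 lines reached the level of ASC-53909, B-152727 highest among them. The slope was -0.38 ± 0.10 (SE; limma, adjusted p = 0.0182). The call was lost without mouse 5193 (-0.32 ± 0.12, adjusted p = 0.111), as 1 mean per mouse (-0.30 ± 0.10, adjusted p = 0.113), with the mouse as a fixed block (-0.47 ± 0.21, adjusted p = 0.337) and without the 2 lines farthest from the median Cdh1 (-0.29, adjusted p = 0.247).

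**Figure D2:**
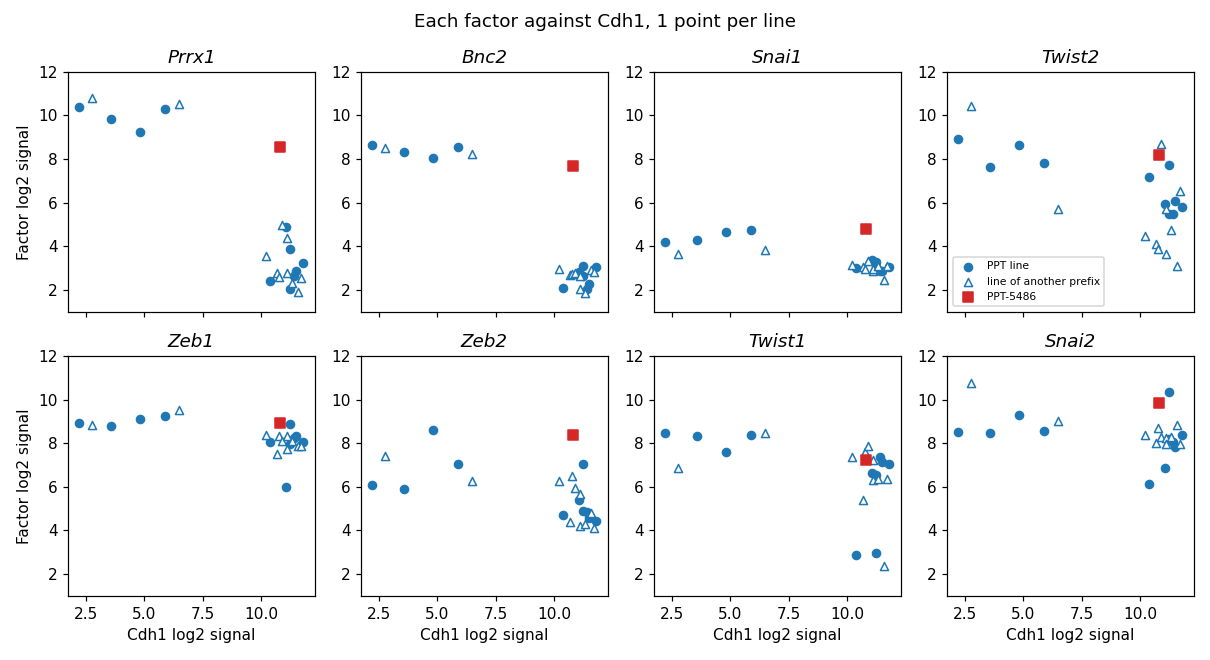
Log2 signal of each factor (vertical axes) against that of Cdh1 (horizontal axes), with 1 point per line: filled circles are PPT lines, open triangles lines of another prefix and the red square is PPT-5486. Prrx1 and Bnc2 form 2 separate levels with PPT-5486 (8.55 and 7.69) near the upper one, and the other factors overlap to different degrees.

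Zeb1 and Zeb2 were close to the threshold. Zeb1 (1418926_at; chromosome 18, 5591327 to 5775468) was 8.92 in PPT-3250, 8.83 in ASC-5193, 8.80 in PPT-16992, 9.13 in PPT-17728, 9.23 in PPT-5320 and 9.52 in ASC-53909. Above the gap the lowest signal was 6.0 (PPT-15272), the median 8.09 and the highest 8.92. PPT-5486 and PPT-5748 (8.90) reached the level of the low-Cdh1 lines, and the other 15 lines lay under it. No line was near its array median, so Zeb1 RNA was measured on both sides of the gap. The slope was -0.12 ± 0.04 (SE; limma, adjusted p = 0.0546). It passed without PPT-5486 (-0.13 ± 0.04, adjusted p = 0.0385), without mouse 15272 (-0.10, adjusted p = 0.0170), without mouse 5748 (-0.13, adjusted p = 0.0389) and with arrays centred on their medians (adjusted p = 0.0366). It moved away from the threshold with 1 mean per mouse (-0.12 ± 0.04, adjusted p = 0.102) and with the mouse as a fixed block (-0.07 ± 0.08, adjusted p = 0.804). The other probe sets of Zeb1 did not pass. Among them 1443005_at, with a Pearson r of 0.79 to the brightest, had a slope of -0.07 ± 0.02 (adjusted p = 0.079). The dim 1446127_at had a slope of 0.01 ± 0.04. It was under the array median in 4 of the lines below the gap and 12 of those above it.

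Zeb2 (1422748_at; chromosome 2, 44983512 to 45117442) depended on the probe set. The brightest was 6.07 in PPT-3250, 7.41 in ASC-5193, 5.88 in PPT-16992, 8.61 in PPT-17728, 7.03 in PPT-5320 and 6.26 in ASC-53909. The lines above the gap had a lowest signal of 4.10, a median of 4.84 and a highest of 8.40. PPT-5486, PPT-5748 (7.06), B-5123 (6.48), HEP-5123 (6.28) and B-152727 (5.96) reached the lowest of the low-Cdh1 lines, and PPT-5486 exceeded all of these but PPT-17728. The slope was -0.21 ± 0.07 (SE; limma, adjusted p = 0.0681), and without PPT-5486 it passed (-0.24 ± 0.06, adjusted p = 0.0136), as it did without mouse 3250 (-0.26, adjusted p = 0.0411) or mouse 5748 (-0.23, adjusted p = 0.0425), and with the mouse as a fixed block (-0.31 ± 0.07, adjusted p = 0.0313). The fixed block compares lines within a mouse, and only the pair of mouse 5193 lies across the gap. The slope did not pass without mouse 5193 (-0.18 ± 0.09, adjusted p = 0.235) or as 1 mean per mouse (-0.14 ± 0.10, adjusted p = 0.462). The probe set 1434298_at passed with all lines (-0.37 ± 0.07, adjusted p = 0.00062). It was 5.05 to 6.71 below the gap and 1.57 to 5.24 above it, and only PPT-5486 overlapped. The others were mixed: 1456389_at (adjusted p = 0.00337) and the dim 1454200_at (adjusted p = 0.0324), passed, and 1458941_at did not (adjusted p = 0.794). The 2 probe sets 1422748_at and 1434298_at had a Pearson r of 0.80 over the 23 lines.

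Twist1 (1418733_at; chromosome 12, 33957671 to 33959831) did not pass. Its signal was 8.48 in PPT-3250, 6.85 in ASC-5193, 8.35 in PPT-16992, 7.60 in PPT-17728, 8.39 in PPT-5320 and 8.47 in ASC-53909. Above the gap the lowest signal was 2.37, the median 6.62 and the highest 7.87, and 8 of the 17 lines reached the level of ASC-5193. Twist1 was lowest in B-6051 (2.37), PPT-5671 (2.88) and PPT-6051 (2.95), which were the lines under their array median, and the next line was PUL-15272 at 5.40. Both lines of 1 mouse were among these 3, and Cdh1 was high in all 3. The slope was -0.24 ± 0.10 (SE; limma, adjusted p = 0.137), and it turned to 0.03 ± 0.10 with the mouse as a fixed block (adjusted p = 0.941).

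Snai2 (1447643_x_at; chromosome 16, 14705852 to 14709395), also called Slug, did not pass. It was 8.51 in PPT-3250, 10.76 in ASC-5193, 8.47 in PPT-16992, 9.30 in PPT-17728, 8.58 in PPT-5320 and 9.03 in ASC-53909. The 17 lines with high Cdh1 had a lowest signal of 6.13 (PPT-5671), a median of 8.26 and a highest of 10.36 (PPT-5748). The lowest signal of all lines thus belonged to a line with high Cdh1, PPT-5671, and the highest to a line with low Cdh1, ASC-5193. Among the lines with high Cdh1, PPT-5748, PPT-5486 (9.83), B-6051 (8.83) and B-5123 (8.71) reached the low-Cdh1 lines. The slope was -0.12 ± 0.06 (SE; limma, adjusted p = 0.238). Its size depended on how the mice entered the fit. Without mouse 5193 it was -0.04 ± 0.07 (adjusted p = 0.778), and as 1 mean per mouse -0.03 ± 0.08 (adjusted p = 0.873). With the mouse as a fixed block it was -0.33 ± 0.06 and passed (adjusted p = 0.0123). That block compares lines within a mouse, and only the pair of mouse 5193 lies across the gap. The second probe set, 1418673_at, followed the first with an r of 0.98 and had a slope of -0.11 ± 0.06 (adjusted p = 0.316).

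**Figure D3:**
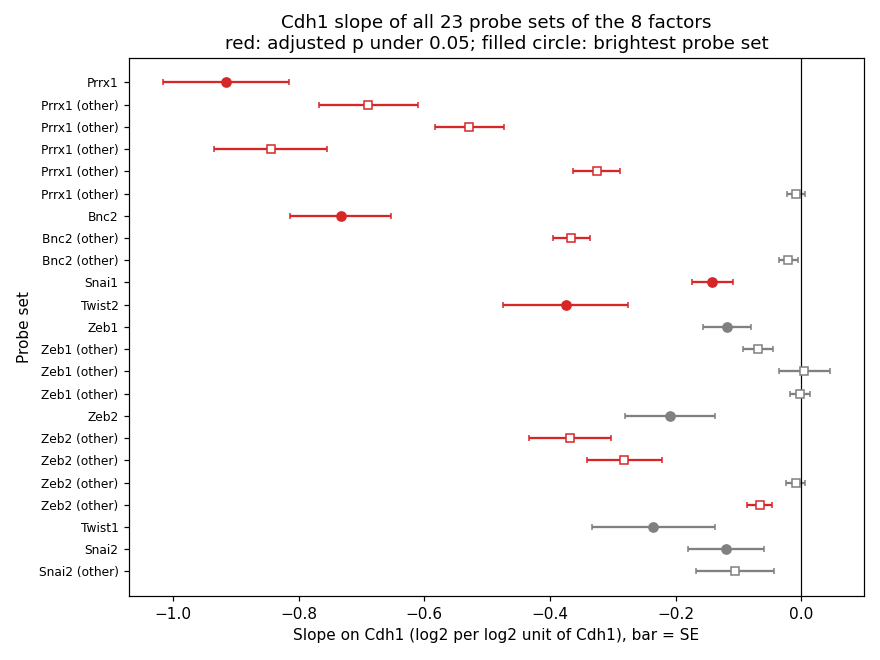
Slope on Cdh1 with its SE (horizontal axis, log2 per log2 unit) for all 23 probe sets of the 8 factors (vertical axis). Filled circles are the brightest probe set of a gene, open squares the others, and red marks an adjusted p under 0.05. Of the 15 other probe sets 8 passed, those of Prrx1, Bnc2 and Zeb2.

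The slopes rest on the contrast between the clusters. Within the 17 lines above the gap no probe set passed (0 of 45036, 0%, limma; smallest adjusted p = 0.375), and 3110 had an unadjusted p under 0.05, none of them a factor. Adjusted p-values of the factors there ran from 0.815 for Zeb2 to 0.996 for Twist1. In these 17 lines, whose arrays share several mice, Spearman's rho with Cdh1 was -0.45 for Zeb2, -0.31 for Snai1, -0.30 for Prrx1, -0.21 for Twist1, -0.15 for Zeb1, -0.02 for Bnc2, and 0.01 for both Twist2 and Snai2. In the 6 lines below the gap rho was -0.77 for Twist2 and 0.77 for Zeb1, and between -0.54 and 0.31 for the other 6. These are descriptions of few lines. Above the gap they cover a narrow range of Cdh1 (10.23 to 11.81), and below it a wider one (2.22 to 6.48) in only 6 lines.

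PPT-5486, singled out after its values were seen, stood out among the lines with high Cdh1. Its Cdh1 signal of 10.80 lay well within that of the 17 lines, whereas it had the highest Zeb1, Zeb2, Snai1, Prrx1 and Bnc2 of the 17, the second highest Snai2 and Twist2 and the sixth highest Twist1 (7.23). PPT-5748 shared a part of this, with Zeb1 at 8.90, Zeb2 at 7.06 and the highest Snai2 of the 17 (10.36). Its Prrx1 (2.06), Bnc2 (3.12) and Snai1 (3.07) were lower than in PPT-5486. Without PPT-5486, 3 factors separated at the gap (Prrx1, Bnc2 and Snai1), against 370 of all probe sets (0.822%) with a higher signal below it. Of these 370, PPT-5486 lay in the range of the 6 low-Cdh1 lines for 45.1%, in that of the other 16 lines for 31.1% and between them for 23.8%. Of 339 probe sets with a lower signal below the gap, it lay in the range of the other 16 lines for 79.6% and in that of the low-Cdh1 lines for 7.67%. Genes given here after their values were seen include its keratins (Krt8 13.29, Krt18 13.22, Krt19 11.71), which were within the range of the other lines with high Cdh1. Col3a1 (13.01), Postn (11.44), Thy1 (10.65), Pdgfrb (10.59) and Fap (8.10) were each highest in PPT-5486 of all 23 lines. Of the fibroblast and stellate cell markers listed below, Pdgfra (7.46), Dcn (7.16), Lum (2.51) and Des (5.35) were not highest there. Lum was at the median of the lines with high Cdh1. Postn and Fap were under the array median in 16 and 22 of the 23 lines.

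Some fibroblast and stellate cell markers (Pdgfra, Pdgfrb, Fap, Thy1, Dcn, Lum and Des) followed the same lines. The mean log2 signal of the 7 genes was 4.31 to 7.05 in the lines below the gap, 2.82 to 7.40 in those above it, and highest in PPT-5486. Of the 7 genes 3 passed with a negative slope (Dcn, Pdgfrb and Pdgfra), against 4.58% of all probe sets, and Fap was 2.31 to 3.29 in the low-Cdh1 lines. The mean of the 7 ductal markers was 3.55 to 7.71 below the gap and 8.33 to 11.4 above it, with 10.2 in PPT-5486. The part of other cell types in the results was not tested. Leaving out both lines of mouse 5193, with the line of lowest keratins, left Prrx1 (-0.93 ± 0.12, adjusted p = 4.84e-05), Bnc2 (-0.75 ± 0.10, adjusted p = 3.74e-05) and Snai1 (-0.17 ± 0.04, adjusted p = 0.00584) past the threshold. Leaving out PPT-5486 gave 6 factors past it, with Zeb1 and Zeb2 added to the 4, and moved Bnc2 to -0.77 ± 0.05 (adjusted p = 2.87e-09). Calls over all 45036 probe sets rose as well. They went from 2064 to 2333 with a negative slope and from 2201 to 2237 with a positive one.

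By their names, PPT-5193 and ASC-5193 come from 1 mouse and lie on opposite sides of the gap, and ASC-5193 is the line with the lowest keratins. Cdh1 was 11.50 in PPT-5193 and 2.75 in ASC-5193. From the first to the second line Prrx1 went from 2.86 to 10.79 and Bnc2 from 2.26 to 8.52. Twist2 was 4.33 higher in ASC-5193, Snai2 2.92, Zeb2 2.85, Snai1 0.77 and Zeb1 0.50, and Twist1 was 0.30 lower. Prrx1 and Bnc2 in PPT-5193 and Cdh1 in ASC-5193 were under the array median (3.74 and 3.61), so the sizes of these differences are not exact. With 1 array per line they carry no error. In the other 7 pairs of a PPT line and another line of the same mouse Cdh1 differed by -0.38 to 0.34. In those pairs Bnc2 differed by -0.19 to 0.80 and Prrx1 by -2.10 to 0.14, whereas Twist2 ranged from -2.38 to 2.76 and Zeb1 from -0.36 to 2.09. In mouse 15272 all 3 other lines had more Zeb1 (7.51 to 8.09) than PPT-15272 (6.0) and more Snai2 (7.96 to 8.28 against 6.86), at like Cdh1 (10.69 to 11.12).

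No factor passed a comparison by the prefix of the name. No probe set passed in a comparison of the 11 lines of another prefix with the 12 PPT lines (0 of 45037, 0%, limma; smallest adjusted p = 0.722), and 1649 had an unadjusted p under 0.05, none of them a factor. The largest difference among the factors was that of Twist2, at 5.54 ± 2.26 (SD, n = 11) in the lines of another prefix and 7.08 ± 1.26 (SD, n = 12) in PPT lines, with a fitted difference of -1.18 ± 0.72 (SE). Prrx1 was 5.86 ± 3.46 (SD, n = 12) in PPT lines and 4.48 ± 3.19 (SD, n = 11) in the others, and Zeb1 was 8.38 ± 0.87 (SD, n = 12) and 8.23 ± 0.56 (SD, n = 11). Whether the slope on Cdh1 differed between the prefixes was tested with an interaction term: 221 probe sets passed (0.491%), and none of the 8 factors did (adjusted p from 0.656 for Snai2 to 0.99 for Zeb1).

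Other genes of the programme were taken from lists chosen by name. Of 18 epithelial junction and identity genes 10 passed with a positive slope, against 4.89% of all probe sets, and 0 with a negative one, and the median slope was 0.32, against 0.0004 over all probe sets. Ranges without overlap and lower below the gap were found for 4 of the 18, against 313 of all probe sets (0.695%). Dsp, the desmosomal plaque protein desmoplakin, was 1.59 to 3.24 below the gap and 8.24 to 10.54 above it (0.99 ± 0.06, adjusted p = 1.47e-09). Crb3, a polarity protein, was 4.89 to 5.31 below and 6.58 to 8.01 above (0.27 ± 0.03, adjusted p = 7.53e-07). Krt19 was 2.87 to 9.83 and 10.29 to 13.18 (0.74 ± 0.07, adjusted p = 9.09e-08), and Krt7 2.09 to 6.63 and 4.46 to 12.83 (1.02 ± 0.14, adjusted p = 3.39e-05). Epcam (2.89 to 3.74 and 3.69 to 11.7) and Krt8 (3.44 to 12.81 and 12.26 to 13.75) passed, and Cldn7 (2.51 to 3.76 and 2.82 to 11.16) did not (adjusted p = 0.0525); these genes were added because their promoters are shown above.

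Of 12 measured epithelial transcription and splicing regulators 7 passed with a positive slope, against 4.89% of all probe sets, and 0 with a negative one (median slope 0.15). Esrp2, which directs epithelial splicing, was 2.55 to 4.37 below the gap and 6.49 to 8.87 above it, and PPT-5486 was the lowest of the upper lines. Elf3, an ETS factor of epithelia, was 3.97 to 5.54 and 5.95 to 9.02, again with PPT-5486 lowest. The pioneer factors Foxa1 (0.46 ± 0.07, adjusted p = 0.000112) and Foxa2 (0.48 ± 0.06, adjusted p = 2.13e-05) also passed. The 5 that did not pass, named after their values were seen, were Grhl2, Grhl3, Ovol1, Ovol2 and Esrp1. Ovol1 was under the array median in all 23 lines, Grhl3 and Ovol2 in 22, Esrp1 in 20 and Grhl2 in 0.

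Of 16 mesenchymal effectors 10 passed with a negative slope, against 4.58% of all probe sets, and 0 with a positive one (median slope -0.32). Sparc, a matrix glycoprotein, was 11.93 to 12.71 below the gap and 3.56 to 12.23 above it, with PPT-5486 highest (-0.65 ± 0.14, adjusted p = 0.00291). Col3a1 was 10.4 to 12.8 and 2.1 to 13.01 (-0.95 ± 0.19, adjusted p = 0.00155), Mmp2, a gelatinase, 4.26 to 9.73 and 2.98 to 7.59 (adjusted p = 0.0011), and Pdgfrb 7.3 to 9.85 and 1.44 to 10.59 (adjusted p = 0.00675). In each of these 4 genes the upper end above the gap was PPT-5486. Vim, an intermediate filament and common EMT marker, was 12.92 to 13.65 and 11.34 to 13.28 and did not pass (-0.07 ± 0.03, adjusted p = 0.242); it is named here after its values were seen.

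Of 14 other EMT-associated transcription factors 3 passed with a negative slope and 2 with a positive one (median slope 0.004), against 4.58% and 4.89% of all probe sets. Tcf4, a basic helix-loop-helix partner also known as E2-2, was 9.4 to 10.55 below the gap and 6.36 to 9.16 above it (-0.33 ± 0.04, adjusted p = 9.93e-06), and Foxc1 6.2 to 7.17 and 2.27 to 6.29 (-0.34 ± 0.07, adjusted p = 0.00304). In contrast, Foxq1 was 3.86 to 5.29 and 5.53 to 9.15 (0.41 ± 0.05, adjusted p = 2.11e-05), and Snai3, the third Snail gene, 3.77 to 5.15 and 4.82 to 5.85 (0.12 ± 0.03, adjusted p = 0.00424). Of 24 cofactors and regulators of the factors 3 passed with a negative slope and 1 with a positive one (median slope 0.002), the latter near the 4.89% of all probe sets. Id3, an inhibitor of basic helix-loop-helix proteins, was 10.24 to 11.36 below the gap and 5.74 to 9.56 above it (-0.33 ± 0.08, adjusted p = 0.00692), and Id2 8.75 to 10.92 and 9.61 to 11.65 (0.16 ± 0.04, adjusted p = 0.0143). Hdac2 (-0.06 ± 0.02, adjusted p = 0.0286) and the ligand Tgfb3 (-0.26 ± 0.07, adjusted p = 0.0280) passed with a negative slope. None of the lists holds 1 of the 8 factors.

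The factors also differed in their company. Between Prrx1 and Bnc2 the Pearson r over the 23 lines was 0.97, the highest of the 28 pairs of factors, and Spearman's rho in the 17 lines above the gap was 0.22, or 0.06 without PPT-5486. Twist1 with Snai2 had the lowest r of the 28 pairs, at 0.31. Within the 17 lines rho was highest for Zeb1 and Twist1 (0.58), Snai2 and Bnc2 (0.58) and Zeb1 and Snai2 (0.57). Without PPT-5486 these values were 0.57, 0.49 and 0.49. Among 11650 brighter genes the 3 with the highest r to Prrx1 were Pcdh19 (0.97), Bnc2 (0.97) and Loxl3 (0.95), and for Bnc2 they were Prrx1, Pcdh19 (0.96) and Mxra7 (0.95). Snai1 was nearest to Lox (0.90), Aebp1 (0.90) and Cd248 (0.89), Zeb2 to Rhoj (0.89), Fstl1 (0.88) and Glipr2 (0.87), and Twist2 to Adamts1 (0.84), Ndrg4 (0.83) and Pde4b (0.82). Zeb1 was nearest to Dennd4a (0.92), Osbpl1a (0.91) and Extl2 (0.85), Twist1 to Lrrk2 (0.87), 2700099C18Rik (0.81) and Pxdn (0.80), and Snai2 to Ndel1 (0.82), Aldh1l2 (0.80) and Ext1 (0.80). These values describe 23 lines that share mice and 2 clusters of Cdh1.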

How the data were processed

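Deposited were summarised, normalized log2 signals, 1 for every probe set of every array. For this step the submitters' processing notes name RMA and the study's supplementary methods VSN, in both cases without a version. These log2 values were not normalized again, and of 45101 probe sets 64 controls were dropped. By the platform's annotation 34945 of the rest carry a single symbol, 932 carry several and 9160 carry none, and only those with a single symbol were named. Genome positions and promoters are those of RefSeq (GRCm38.p6). The mouse was read from the number in the line's name, and B-152727 was taken as mouse 15272. Drug response was not used, since the labels do not give it, and 1 allele of the mice is not reported here.

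The slope, the prefix difference and the interaction were fitted with limma 3.58.1 (lmFit, eBayes; R 4.3.3) over all probe sets without a filter on dim signals. The mouse was a random block (duplicateCorrelation, statmod 1.5.0; correlation 0.223, 0.243 and 0.174). Fits were tested on simulated data in which the spread of each probe set was capped, so the check does not cover probe sets of larger spread. P-values measure the spread between lines, and the number of lines limits the precision. Genes were named by rule: the factors, up to 4 genes per list with the smallest p, and the 3 genes of highest r to each factor; others were named after their values were seen. Members, lists and tests were chosen with earlier results of these data known.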

Additional observations from a re-analysis of the deposited data

How the results depend on the processing

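Fewer probe sets passed the slope on Cdh1 with 1 mean per mouse (862 negative and 1252 positive, with 2 of the factors) and with the mouse as a fixed block (976 and 639). Without the 2 lines farthest from the median Cdh1, 1399 passed with a positive slope. In the 17 lines above the gap, an alternative chosen after seeing the data, 0 passed in either direction and 0 factors did. Leaving out each mouse in turn gave 1329 to 2325 negative and 1563 to 2225 positive calls and 3 to 6 factors, the 1329 without mouse 53631. Prrx1 and Bnc2 kept their call in every alternative that used their brightest probe set and both clusters. Under the fixed block Snai2 (-0.33, adjusted p = 0.0123) and Zeb2 (-0.31, adjusted p = 0.0313) passed and Snai1 (adjusted p = 0.322) and Twist2 (adjusted p = 0.337) did not; this block compares lines within a mouse, and the pair of mouse 5193 is the only one across the gap. Among the brighter probe sets alone Zeb1 (adjusted p = 0.0497) and Zeb2 (adjusted p = 0.0476) passed, and Zeb1 also passed without a block (adjusted p = 0.0306).

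The slope changed sign for Twist1 with the fixed block (0.032) and within the upper lines (0.056), and for Snai2 within the upper lines (0.39). It also did so for Zeb1 with the probe set 1446127_at (0.0051), which was under the array median in most lines. None of these slopes passed the threshold. The prefix difference, which passed for no factor, changed sign with the fixed block for Zeb2 (0.34), Twist2 (0.30), Prrx1 (0.91) and Bnc2 (1.34), with 1 mean per mouse for Prrx1 (0.053) and Bnc2 (0.14), and for Zeb1 without a block (-0.14) and without mouse 15272, 5193 or 53909 (-0.11, -0.014 and -0.07, within a leave-one-out range of -0.11 to 0.13). The causes were not tested. Quantile normalization again left 221 and 318 probe sets separated at the gap and 2 factors. Cdh1 has 1 probe set, so a fit with another one could not be made. No depth applies to arrays; Snai1 and the upper lines of Bnc2 and Prrx1 were near or under the array median, where a signal gives an upper bound more than a level.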
